A study of Mus musculus with 12 samples.

Results

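A processed pseudogene is a copy of a gene that arose when the spliced mRNA of that gene, its parent, was reverse transcribed and inserted elsewhere in the genome. Such copies lack introns and the promoter of the parent, and they accumulate mostly from mRNAs that are abundant in the germ line, such as those of ribosomal proteins and translation factors. Because copy and parent can be nearly identical, an RNA-seq read of the parent's mRNA can be placed on the copy, and the reverse, so a count on a processed pseudogene is not by itself evidence that its locus was transcribed.

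The 200 genes described here are the rows annotated as processed pseudogenes with the largest mean CPM, the count divided by the library's total count and multiplied by 1000000, over all 12 libraries of the study. They were taken from 10002 processed pseudogenes, of which 8374 had any count, in a table of 55401 genes. The levels in all 4 groups therefore chose the members, and the levels themselves are given as a description.

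RNA was sequenced from Pax7-ZsGreen+ satellite cells, the muscle stem cells, sorted from mouse hind limbs. All mice were homozygous for the floxed *Cxcr4* allele (CXCR4 FL/FL), carried the Pax7-ZsGreen reporter and received 80 mg/kg tamoxifen on 5 days. KO mice also carried Pax7-creERT2, which drives the tamoxifen-dependent recombinase in Pax7-expressing cells only, and WT mice had no cre. Quiescent libraries came from freshly sorted cells (4 WT and 4 KO) and activated libraries from cells cultured overnight (2 WT and 2 KO), and the mice were adults per the study's methods. The methods give sample sizes in general as numbers of independent mice, but the labels do not tie these libraries to animals, so p-values are read as the spread between libraries.

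From here on CPM are scaled by edgeR's TMM factors unless stated. *Cxcr4*, the targeted gene, was lower in each quiescent KO library (12.5 to 21.2 CPM) than in each quiescent WT library (59.1 to 112 CPM). In activated libraries *Cxcr4* was at 33.3 and 14.4 CPM in WT and at 5.39 and 13.7 CPM in KO. KO replicate 2 thus lay just below WT replicate 2. The log2 fold change of -1.35 in activated cells did not pass edgeR's test (adjusted p = 0.381). Quiescent libraries held 12775593 to 23717013 counts and activated ones 3172164 to 5427280. The row *CT010467.1*, which holds ribosomal RNA, took 0.295 to 0.807% of the counts in quiescent and 11.5 to 40.3% in activated libraries. The summed level of 10 satellite cell markers was 5400 to 9749 CPM in quiescent and 3154 to 4413 CPM in activated libraries, while that of 9 mature fibre genes was 292 to 957 CPM and 6571 to 16059 CPM. *Pax7*, among the satellite cell markers, was at 303 to 482 CPM in quiescent WT and 181 to 290 CPM in quiescent KO libraries. These ranges did not overlap, but the log2 fold change of -0.67 did not pass edgeR's test after adjustment. Haematopoietic markers (8 genes) summed to 87.8 to 370 CPM in quiescent and 40.7 to 67.1 CPM in activated libraries. Markers of fibroadipogenic progenitors (8 genes) spanned 1329 to 2123 CPM in quiescent WT and 369 to 3885 CPM in quiescent KO, and 358 to 959 CPM in activated libraries. State, depth, ribosomal RNA share and these markers changed together and cannot be told apart, nor can fewer cells of a type and less RNA per cell in bulk samples. Sex markers were also recorded as changing with state and depth, and cannot be told apart from them either. Their values are not given here. A gene is called when edgeR's quasi-likelihood test gave an adjusted p under 0.05 with a log2 fold change beyond 1 and a mean count over 10.

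Of the 200 members, 185 aligned in sense to a protein-coding transcript of a parent (identity of 90% or more, 80% or more of the copy covered), and they have 138 parents. The median identity was 99.1%, the lowest 90.4%, and 25 members were identical to the parent over their whole aligned length. Ribosomal proteins of the cytosol were the parents of 79 members (54 parents), and translation factors of 15. Cytoskeletal proteins accounted for 11 members, chromatin and HMG proteins for 9, RNA processing factors for 8, chaperones for 7, glycolytic enzymes for 5, mitochondrial respiration for 3, the proteasome and ubiquitin for 2 and other genes for 46. *Eef1a1*, the elongation factor that brings aminoacyl-tRNA to the ribosome, had 8 copies among the members, and *Npm1* and *Rps2* had 4 each. In 108 cases the parent had a single member, and 30 parents had more than one. The 15 members without such a parent had no hit (6) or a hit below these limits (9).

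The members lay on 20 chromosomes. Their median length was 636 bases, 145 were intergenic, 53 lay in an intron of a protein-coding gene (25 on its strand, 28 on the other) and 2 overlapped an exon. At the edge of the ranking, *Gm4335*, *Rps10-ps1* and *Gm7816* were the last included at 3.06, 3.05 and 3.02 CPM without TMM scaling. *Ube2n-ps1*, *Rpl23a-ps3* and *Ndufs5-ps* were the first left out at 3.02, 3.02 and 2.99 CPM.

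How well a copy can be told from its parent depends on where the bases differ. The stretches below set 90 bases of a member beside the same stretch of the parent's coding sequence, and capitals mark the bases that differ. Some of the pairs on which the results turn are covered, and the pair of *Gm10036* and *Rpl11* is not among them. The stretches were taken from GENCODE release M21 transcripts on GRCm38. Each is an ungapped stretch whose ends match the parent, with the most differences found, up to 9. They lie at chr17:78491978-78492067 (plus strand) in *Hdac1-ps*, chr2:40556593-40556682 (plus) in *Gm13456*, chr14:98519519-98519608 (minus) in *Gm49017*, chr6:122698822-122698911 (minus) in *Gm10224*, chr9:17030525-17030614 (plus) in *Gm5611*, chr12:101222314-101222403 (minus) in *Mylf-ps*, chr1:60704380-60704469 (plus) in *Eif4a-ps4* and chr6:99878245-99878334 (minus) in *Tpt1-ps3*.
Hdac1-ps: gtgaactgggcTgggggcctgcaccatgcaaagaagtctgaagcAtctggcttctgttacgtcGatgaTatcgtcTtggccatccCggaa
Hdac1 for Hdac1-ps: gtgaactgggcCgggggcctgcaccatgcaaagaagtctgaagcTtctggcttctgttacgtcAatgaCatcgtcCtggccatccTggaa
Gm13456: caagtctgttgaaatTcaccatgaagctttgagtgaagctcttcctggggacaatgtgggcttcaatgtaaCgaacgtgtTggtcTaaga
Eef1a1 for Gm13456: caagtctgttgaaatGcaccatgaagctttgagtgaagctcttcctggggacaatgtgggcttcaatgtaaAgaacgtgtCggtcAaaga
Gm49017: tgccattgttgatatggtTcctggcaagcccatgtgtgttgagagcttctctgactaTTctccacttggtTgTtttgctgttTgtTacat
Eef1a1 for Gm49017: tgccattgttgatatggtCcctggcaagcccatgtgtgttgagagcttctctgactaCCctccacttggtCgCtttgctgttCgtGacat
Gm10224: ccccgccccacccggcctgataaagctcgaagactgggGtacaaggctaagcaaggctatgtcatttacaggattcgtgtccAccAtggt
Rpl15 for Gm10224: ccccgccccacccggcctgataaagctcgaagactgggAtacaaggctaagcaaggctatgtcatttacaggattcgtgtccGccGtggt
Gm5611: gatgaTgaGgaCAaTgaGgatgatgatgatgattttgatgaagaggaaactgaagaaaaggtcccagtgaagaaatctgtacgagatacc
Npm1 for Gm5611: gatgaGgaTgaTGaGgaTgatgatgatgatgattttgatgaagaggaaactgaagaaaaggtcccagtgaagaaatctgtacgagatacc
Mylf-ps: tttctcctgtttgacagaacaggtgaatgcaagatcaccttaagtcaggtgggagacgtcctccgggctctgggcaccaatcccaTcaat
Myl1 for Mylf-ps: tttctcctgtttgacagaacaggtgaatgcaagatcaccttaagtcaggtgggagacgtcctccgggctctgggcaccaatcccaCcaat
Eif4a-ps4: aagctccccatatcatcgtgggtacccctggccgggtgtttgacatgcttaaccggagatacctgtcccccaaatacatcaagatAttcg
Eif4a1 for Eif4a-ps4: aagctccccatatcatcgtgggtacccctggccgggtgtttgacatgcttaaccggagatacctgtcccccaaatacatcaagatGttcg
Tpt1-ps3: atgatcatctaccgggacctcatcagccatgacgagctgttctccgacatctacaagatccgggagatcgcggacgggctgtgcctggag
Tpt1 for Tpt1-ps3: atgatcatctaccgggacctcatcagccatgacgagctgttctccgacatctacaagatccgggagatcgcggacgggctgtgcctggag

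In the stretches shown *Gm49017* differed from *Eef1a1* at 7 of 90 bases, *Hdac1-ps* from *Hdac1* and *Gm5611* from *Npm1* at 6, *Gm13456* from *Eef1a1* at 4, *Gm10224* from *Rpl15* at 3, and *Mylf-ps* and *Eif4a-ps4* from their parents at 1. *Tpt1-ps3* carried no difference there or anywhere else in its 519 bases.

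As a measure over the whole copy, the share of its 150-base windows found unchanged in a transcript of the parent was computed for 183 members (reads were pairs of 150 bases, so the mate of a read from a shared window can still differ). The median was 27.1%. No window was shared in 39 members, under 50% in 77, 50% or more but not all in 43, and all in 24. With the counts of member and parent taken as a pair, the median share on the member in quiescent libraries was 0.853%, 0.849%, 2.30% and 4.36% over these classes. Across the 183 members Spearman's rho between shared windows and pair share was 0.36, where all points come from the same libraries and genes are not independent replicates. The pair share also depends on the level of the parent: the 3 lowest, 0.0152% to 0.0169%, were all copies of *Eef1a1* (*Gm49017*, *Gm6170* and *Gm12912*, named after their values were seen). The member took over 50% of the pair's counts in 6 members, of which *Gm8186* shared every window with its parent *Snrpg* (65.9%), and *Gm6611* shared none with *AF366264* (82.7%), both also named after their values were seen.

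The 200 members held 47.4% of all counts on processed pseudogenes, and the 10 with the largest mean CPM held 27.5% of the members' sum. *Gm13456*, a copy of *Eef1a1* (98.5% identity; chromosome 2, 40555752 to 40557116), ranked first at a mean of 127 CPM before TMM scaling. Its level was 44.5 to 55.3 CPM in quiescent WT, 37.3 to 68.5 CPM in quiescent KO, and 57.0 and 87.6 CPM in activated WT libraries. In activated KO libraries it was 61.1 CPM in replicate 1 and 1041 CPM in replicate 2, so its rank owed much to 1 library. *Eef1a1* itself was at 7715 and 7741 CPM in the same pair of libraries.

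*Gm15459*, a copy of the chaperone gene *Hspa8*, ranked second and had 56.4 to 123 CPM in quiescent libraries and 85.6 to 237 CPM in activated ones. *Gm10736* is an uninterrupted copy of *Rpl41*, which encodes a very short ribosomal protein, and is only 78 bases long. Per kilobase it had the highest level of the first 10, 727 CPM per kilobase in quiescent WT libraries, beside 798 CPM per kilobase for *Rpl41*. Because *Gm10736* is shorter than a read of 150 bases, its level per kilobase is not directly comparable with those of longer genes. *Tpt1-ps3* (chromosome 6, 99877816 to 99878334) is identical to *Tpt1*, the translationally controlled tumour protein gene, and was at 56.8 to 88.3 CPM in quiescent and 53.1 to 80.8 CPM in activated libraries. The ranges of both states overlapped.

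The others of the first 10 were *Gm4204* (parent *Nap1l1*, a histone chaperone), *Eif4a-ps4* (*Eif4a1*, an RNA helicase of translation initiation), *Gm10123* (*Ppia*, cyclophilin A), *Gm8730* (*Rplp0*, a protein of the ribosomal stalk), *Gm10036* (*Rpl11*, a protein of the large ribosomal subunit) and *Ptges3-ps* (*Ptges3*, the co-chaperone p23). In quiescent WT libraries *Gm10036* had the lowest level of the 10 at 5.68 CPM per kilobase, and it is described with the knockout comparison. *Gm10123* and *Ptges3-ps* shared every window with their parents and held 13.98% ± 1.56 and 15.9% ± 1.82 (SD, n = 4) of the pair's counts in quiescent WT libraries. The share of *Gm4204*, with 70.8% of windows shared, was 16.9% ± 0.533 (SD, n = 4).

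The summed level of the members was 1342 to 1803 CPM in quiescent WT and 1388 to 2014 CPM in quiescent KO libraries. In activated cells it was 2798 and 3805 CPM in WT and 3621 and 7300 CPM in KO. As a share of all counts, this was 0.159% ± 0.00825 (SD, n = 4) and 0.172% ± 0.0370 (SD, n = 4) in quiescent WT and KO, and 0.295% ± 0.0295 (SD, n = 2) and 0.515% ± 0.173 (SD, n = 2) in activated WT and KO. Every activated library lay above every quiescent one, and both activated KO libraries differed from each other by more than the WT pair did. The sum of the 138 parents did not separate the states, at 63244 to 94681 CPM in quiescent and 64624 to 80477 CPM in activated libraries.

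**Figure D1:**
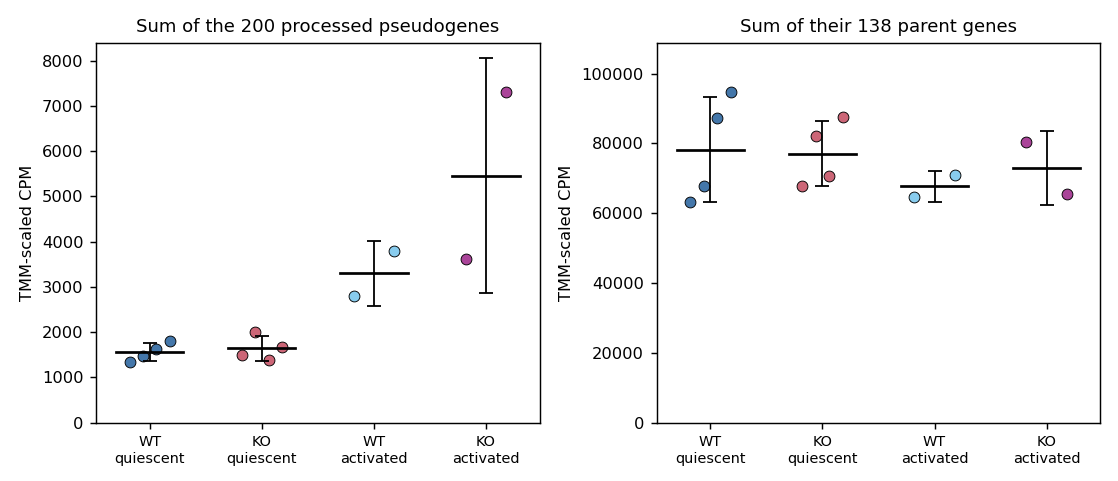
Summed level of the 200 processed pseudogenes (left) and of their 138 parent genes (right) in TMM-scaled CPM, 1 point per library, with the mean (line) and SD (bars) of each group of 4 quiescent or 2 activated libraries. All 4 activated libraries exceed the 8 quiescent ones for the pseudogenes, with KO replicate 2 at 7300 CPM, while the parents' sums overlap. The pseudogenes were ranked with the activated libraries included.

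The deletion of *Cxcr4* was compared first in quiescent cells. Of the 200 members 2 were called, *Gm10036* and *Hdac1-ps*, both higher in KO, against 0.0155% of all 25771 genes tested (0.00776% higher and 0.00776% lower). Of the 138 parents none was called, and 2 had an unadjusted p under 0.05. Among the members 4 had an unadjusted p under 0.05, beside 448 of all genes, and the median log2 fold change was 0.06 beside 0.02 over all genes.

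*Gm10036* (ENSMUSG00000058064; chromosome 18, 15832794 to 15833327, plus strand, intergenic) is a 534-base copy of *Rpl11* with 99.3% identity and 13.8% of windows shared. It was at 3.03, 2.84, 2.85 and 3.42 CPM in the quiescent WT libraries and at 18.7, 48.2, 21.5 and 23.8 CPM in the KO libraries. The lowest KO library was thus well above the highest WT library, and KO replicate 2 stood above the others. In edgeR's test KO exceeded WT by 3.201 on the log2 scale, with a standard error of 0.31 and an adjusted p of 4.92e-05. *Rpl11* was at 102 to 158 CPM in WT and 108 to 151 CPM in KO, with overlapping groups. The log2 ratio of member to parent rose by 3.14 (standard error 0.40, adjusted p = 0.00613 in limma over 706 pairs of processed pseudogene and parent).

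*Hdac1-ps* (ENSMUSG00000061062; chromosome 17, 78491582 to 78493025, plus strand, intergenic) is a 1444-base copy of *Hdac1*, the histone deacetylase gene, with 99.4% identity and 54.4% of windows shared. It was at 3.24, 2.84, 2.54 and 2.697 CPM in WT and at 11.0, 18.8, 8.85 and 8.88 CPM in KO libraries, again with no overlap. In edgeR's test KO exceeded WT by 2.06 on the log2 scale, with a standard error of 0.31 and an adjusted p of 0.0124. *Hdac1* was at 53.6 to 60.7 CPM in WT and 35.5 to 51.9 CPM in KO, where its log2 fold change of -0.36 was not called. The log2 ratio of copy to parent rose by 2.37 (standard error 0.39, adjusted p = 0.0328 in limma). The call of *Hdac1-ps* was lost in 5 of 8 edgeR fits with 1 library fewer (each WT library, or KO replicate 2), where its adjusted p reached 0.130. Only 1 of the 2 ratios was called in 7 of 8 such limma fits, and none with the replicate number as a block.

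Ratios called in quiescent KO against WT were 0.283% of the 706 pairs, and both were these members. When each parent was summed with all its processed pseudogenes, neither family was called, with log2 fold changes of 0.19 for *Gm10036* with *Rpl11* and -0.02 for *Hdac1-ps* with *Hdac1*. The rise of either copy is small beside the level of its parent. It could not by itself bring the sum to the log2 threshold of 1, so the missing call is not informative.

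**Figure D2:**
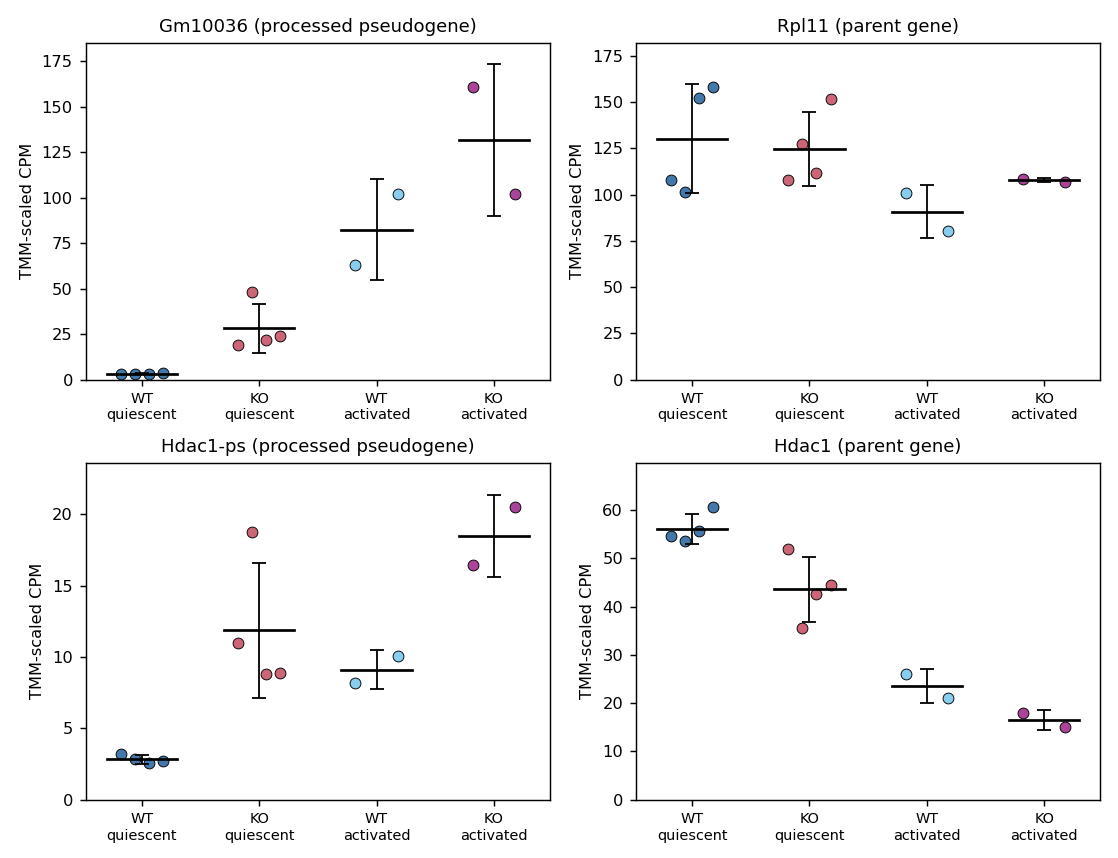
Level of Gm10036 and Hdac1-ps (left) and of their parents Rpl11 and Hdac1 (right) in TMM-scaled CPM, 1 point per library, with mean and SD of each group. Both pseudogenes are higher in all 4 quiescent KO libraries than in all 4 quiescent WT libraries, while the parents overlap (Rpl11) or are lower (Hdac1).

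In activated cells *Gm10036* reached 62.9 and 102.03 CPM in WT and 161 and 102.2 CPM in KO, and *Hdac1-ps* 8.17 and 10.1 CPM in WT and 16.4 and 20.5 CPM in KO. The level of *Gm10036* in WT therefore exceeded that of any quiescent library of either genotype. Its log2 fold change of KO against WT was 0.68 in activated cells, with a standard error of 0.39 and an adjusted p of 0.684 in edgeR's fit, and the difference of the KO effect between the states was -2.52 (standard error 0.49, adjusted p = 0.134). For *Hdac1-ps* the fold change was 1.03 (standard error 0.45) in activated cells, with both KO libraries above both WT libraries, and did not pass edgeR's test (adjusted p = 0.541). The parent *Hdac1* was at 26.0 and 21.02 CPM in activated WT and at 18.0 and 15.1 CPM in activated KO.

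Across the members, 0 were called between activated KO and WT by edgeR's test, against 0.0504% of all genes (0.031% higher and 0.0194% lower), and 53 had an unadjusted p under 0.05, of which 51 were higher in KO, beside 2158 of all 25771 genes, of which 1098 were higher. DESeq2 on all libraries called 5 members, all higher, beside 159 of 25771 genes (62 higher). Without a filter on low counts edgeR called 28, all higher, beside 294 of 46597 genes (115 higher). The smallest adjusted p among the members was 0.137, and the median log2 fold change was 0.33 beside 0 over all genes and 0.11 over the parents. With 2 libraries a group the p-values rest on a spread shared with the quiescent groups. No member was called in the difference of the KO effect between states (0.0% of all genes), where 37 had an unadjusted p under 0.05, beside 1699 of all genes. For this difference DESeq2 called 1 member and 53 genes in all, and edgeR without a filter on low counts called 17 members and 168 of 46597 genes. The ranking by mean CPM used the activated KO libraries too, so members high in either of them were favoured. The excess of members higher in activated KO can therefore come in part from how the members were chosen. These counts cannot separate that from an effect of the knockout.

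The higher levels in activated KO cells came largely from replicate 2. It was the highest of the 4 activated libraries in 109 members, and in 37 of them it exceeded the next library more than 3-fold, as did another activated library in 2 members. The ranking by mean CPM favours genes that are very high in a single library. These counts were not taken over all genes, so they are not read as a trait of the members. The summed level of these 37 members was 216, 367 and 285 CPM in WT replicates 1 and 2 and KO replicate 1, and 3293 CPM in KO replicate 2. For the other 163 members it was 2582, 3437, 3336 and 4008 CPM in the same order. Calls between activated KO and WT appeared without KO activated replicate 1 and not without replicate 2, in fits with 1 KO library left. With 1 activated library left out at a time, the log2 fold change of KO against WT ranged from -0.29 to 3.84 in *Gm13456*. It ranged from 0.21 to 4.89 in *Gm10224* and from 0.28 to 0.99 in *Gm10036*.

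*Gm10224*, a copy of the ribosomal protein gene *Rpl15* on chromosome 6 (122698414 to 122699028), had 1.31 and 1.75 CPM in activated WT libraries, 1.80 CPM in KO replicate 1 and 44.3 CPM in KO replicate 2. *Rpl15* was at 264, 319, 337 and 244 CPM, lowest in the library where its copy was highest. *Gm49017* was at 2.45, 7.44, 0.771 and 133 CPM. Here too a single library carried the level, while *Eef1a1* was at 6649, 6924, 7715 and 7741 CPM. *Gm8730*, the copy of *Rplp0*, was at 43.3, 70.9, 74.5 and 299 CPM, and *Rps19-ps6* at 15.5, 23.6, 21.1 and 308 CPM. *Gm49017* and *Rps19-ps6* were chosen after their values were seen.

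The 37 members were less like their parents than the rest. Among the 35 with a parent the median identity was 98.0% and the highest 99.9%, beside 99.3% for the other 150. Their median share of windows found in the parent was 2.61%, with no shared window in 15 of 35, beside 34.7% and 24 of 148. Of the 8 copies of *Eef1a1*, 6 were among the 37, and 12 of the 37 had a ribosomal protein as parent. Since these members were chosen by this library's values, the comparison is a description with no test. The same library held 28.8% of its counts on *CT010467.1*, beside 40.3% in WT replicate 2, and the part of this share in the members' levels was not tested.

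**Figure D3:**
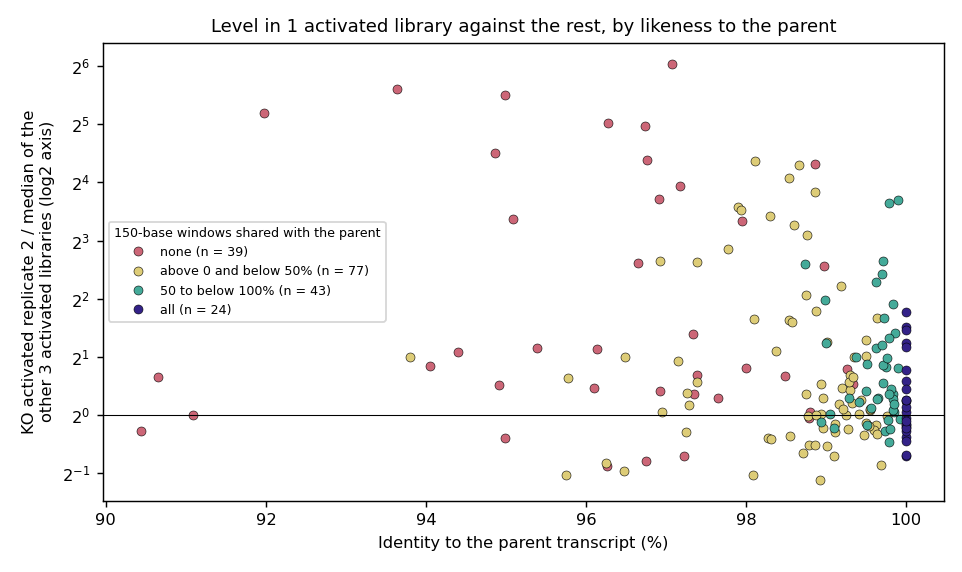
For 183 members with a parent and a length of at least 150 bases, the level in KO activated replicate 2 divided by the median of the other 3 activated libraries (log2 axis, 0.5 CPM added to both), against identity to the parent transcript in percent, with colours for the share of 150-base windows found unchanged in the parent. The 8 highest ratios belong to members that share no window with the parent, and the 24 members that share all windows lie lower.

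Among quiescent libraries KO replicate 2 was the highest of 8 in 94 members, a count not taken over all genes. It was above the median of the other 7 libraries in 145 of 200 members, with a median ratio of 1.37, and in 88 of 138 parents, with a median ratio of 1.10. Leaving out this library and KO activated replicate 2 together, *Gm10036* was the only member called between quiescent KO and WT.

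Activated cells were compared with quiescent cells of the same genotype. In WT, 111 members were called between activated and quiescent cells, 94 higher and 17 lower, where 26.4% of all genes were called (9.35% higher and 17.0% lower). In KO, 146 were called, 135 higher and 11 lower, where the background was 29.7% (10.7% higher and 19.0% lower). The median log2 fold change of the members was 1.22 in WT and 1.77 in KO, beside -0.92 and -0.96 over all genes tested and -0.06 and -0.04 over the parents. Of the 138 parents 20 were called higher and 16 lower in WT, and 21 and 14 in KO. All 82 cytosolic ribosomal protein genes were tested, with 3 higher and 11 lower in WT and 5 each way in KO.

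Because the ranking used the activated libraries too, members high in culture were favoured. Among the 200 processed pseudogenes with the largest mean CPM in the 8 quiescent libraries, of which 157 are members, 103 were called in WT (75 higher) and 115 in KO (93 higher). Of the 2210 processed pseudogenes tested that are not members, 116 were called in WT, 38 higher and 78 lower, and 200 in KO, 111 higher and 89 lower. Without KO activated replicate 2, 90 members were called in KO (78 higher), and without WT activated replicate 2, 73 in WT (62 higher).

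Both genotypes were tested against their own quiescent libraries, and 87 members rose and 11 fell in both, while 13 were called in WT alone and 48 in KO alone. No member was called in the difference between these effects. In the ratio to the parent, 86 of 185 pairs were called in WT (81 higher), where 30.0% of all 706 pairs were called (19.5% higher and 10.5% lower), and 119 in KO (113 higher), where the background was 39.8% (28.8% higher and 11.0% lower). Fewer pairs were called in each genotype without its activated replicate 2, in fits that leave 1 library in the group. Among members called higher with a parent, the parent was called higher in 16 of 93 in WT and 25 of 132 in KO, called lower in 5 and 2, and not called in 72 and 105.

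**Figure D4:**
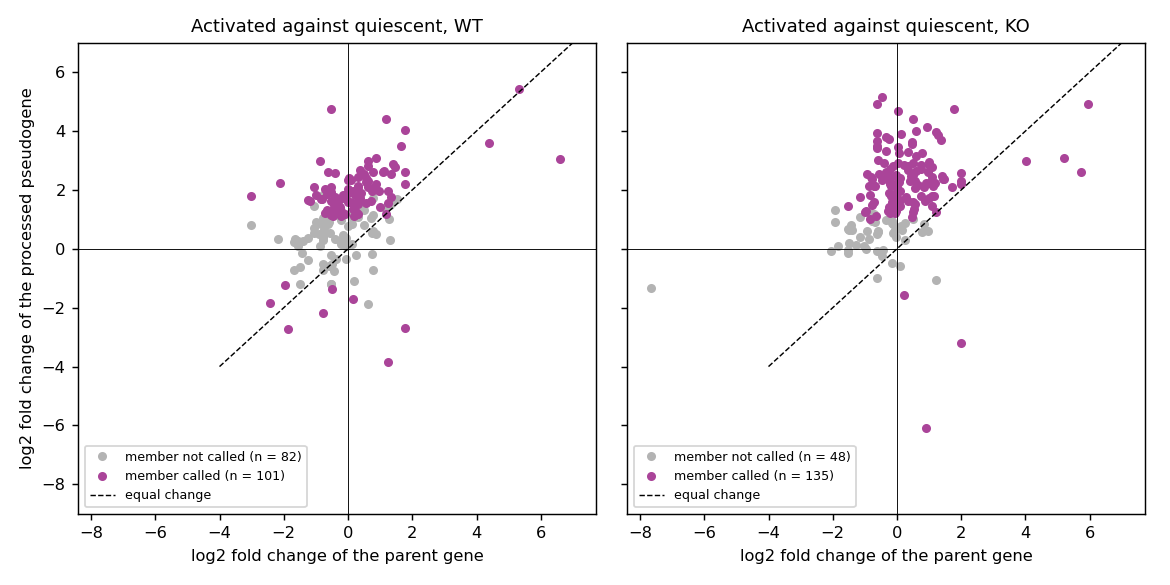
Log2 fold change of activated against quiescent cells for each member (vertical) against that of its parent (horizontal), in WT (left) and KO (right), for the 183 members with a parent and at least 1 count in both activated groups. The dashed line marks equal change, and most called members lie above it with parents near 0.

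By parent class, 43 of 79 copies of ribosomal protein genes were called higher in WT and 3 lower, with a median log2 fold change of 1.28, and 59 and 2 in KO (median 1.72), while their parents' medians were -0.23 and -0.15. Of the 9 copies of chromatin and HMG genes, 8 rose in WT and 7 in KO. Of the 15 copies of translation factor genes 3 were called higher in WT and 12 in KO, and their sum was 250.1 and 372 CPM in activated WT and 302 and 1899 CPM in activated KO libraries, so KO replicate 2 set the KO level. All 3 copies of mitochondrial respiration genes rose in both genotypes, as did 2 of their 3 parents. Of the 15 members without a parent, 1 rose and 7 fell in WT, and 3 rose and 6 fell in KO.

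Members that shared no window with the parent rose least in WT, with 8 of 39 called higher and a median log2 fold change of 0.41, and 27 of 39 in KO with a median of 2.23. Over all genes 9.35% were called higher in WT and 10.7% in KO. Of these 39 members, 15 exceeded the next activated library more than 3-fold in KO replicate 2, so their KO values rest partly on that library. Where some but under 50% of windows were shared, 43 of 77 rose in WT and 56 in KO, with medians of 1.57 and 1.84. For the 24 that shared every window, 16 rose in each genotype, with medians of 1.27 and 1.52. The 87 members that rose in both genotypes had a median identity of 99.5% to their parents, and the 11 that fell in both had 94.05% over the 5 with a parent.

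The largest rises in both genotypes were those of *Mylf-ps*, *Ndufa12-ps*, *Gm5611*, *Gm10036* and *Gm13689*. *Mylf-ps* (chromosome 12, 101221997 to 101222417) is a copy of *Myl1*, which encodes an essential light chain of fast muscle myosin. Its level was 0.209 to 1.37 CPM in the 8 quiescent libraries and 24.3, 20.6, 15.4 and 30.6 CPM in the activated ones, with no overlap. The log2 fold changes were 5.44 (standard error 0.56, adjusted p = 7.12e-07) in WT and 4.92 (0.54, adjusted p = 1.30e-06) in KO by edgeR's test. *Myl1* moved as much, from 5.64 to 17.1 CPM in quiescent to 244 to 842 CPM in activated libraries, and the ratio of copy to parent was not called. *Myl1* is also a gene of muscle differentiation, and the mature fibre genes above moved with it, which cannot be told apart from the change of state.

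*Ndufa12-ps*, a copy of the complex I subunit gene *Ndufa12* in an intron of *Rabgef1* on its strand, was at 0.263 to 2.73 CPM in quiescent and 8.82, 16.6, 10.8 and 14.6 CPM in activated libraries. Its level passed that of its parent, which was at 3.13 to 9.09 CPM and 7.84 to 18.5 CPM, in 2 of the 4 activated libraries, and the log2 ratio rose by 3.21 in WT (adjusted p = 0.00909 in limma) and 2.72 in KO (adjusted p = 0.0153). *Rabgef1* fell, from 119.5 to 219.9 CPM to 51.1 to 66.8 CPM. *Gm13689*, a copy of *Ngly1* with 90.6% identity and no shared window, lies in an intron of *Nckap1* and was at 0.0683 to 1.37 CPM in quiescent and 6.57 to 12.1 CPM in activated libraries. Its parent was at 9.30 to 16.0 CPM and 5.55 to 14.8 CPM, and neither the parent nor *Nckap1* was called.

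*Gm5611*, a copy of the nucleolar chaperone gene *Npm1*, rose from 0.241 to 2.46 CPM to 2.94, 8.32, 4.11 and 47.5 CPM. KO replicate 2 again stood apart, and without it the KO change was no longer called (log2 fold change 1.75, adjusted p = 0.282 from edgeR's test). *Gm10036* rose by 4.75 on the log2 scale in WT (standard error 0.35, adjusted p = 2.39e-08) and by 2.23 in KO (standard error 0.32, adjusted p = 2.61e-05). Its share of the pair with *Rpl11* went from 2.35% ± 0.446 (SD, n = 4) to 47.1% in WT and was 54.3% in activated KO (means of 2 libraries), so by count copy and parent became nearly equal.

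Among the most abundant members, *Eif4a-ps4* was at 21.2 to 31.4 CPM in quiescent and 105 to 128 CPM in activated libraries, a rise of 2.04 on the log2 scale in WT and 2.13 in KO (standard error 0.23 in each). *Eif4a1* was at 1538 to 2300 CPM and 1056 to 1429 CPM, so the states of both did not overlap and moved in opposite directions, although the parent was not called. *Gm4204* rose by 2.04 and 2.23, from 20.5 to 35.9 CPM to 97.6 to 197 CPM. *Ptges3-ps*, identical to its parent, rose by 1.17 and 1.26 while *Ptges3* rose by 1.18 and 1.21, and their ratio changed by -0.02 and 0.07. *Tpt1-ps3*, also identical, did not follow its parent: its log2 fold changes were -0.15 and 0.12, while *Tpt1* fell by 1.44 and 1.26 on the log2 scale and was called in both, so the log2 ratio rose by 1.29 (adjusted p = 0.0150 in limma) and 1.39 (adjusted p = 0.00825).

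The 11 members that fell in both genotypes were led by *Fau-ps2*, *Gm12193*, *Gm4335*, *Gm17083* and *Gm8818*. *Fau-ps2*, in an intron of *Drg1* on its strand, had 7.13 to 32.1 CPM in quiescent libraries and no count in any activated library. A floor of 3 counts over both libraries of a group made it at least 38.5-fold lower in activated WT and at least 44.2-fold lower in activated KO. *Drg1*, its host gene, rose from 10.0 to 15.3 CPM to 27.6 to 48.5 CPM. No parent transcript was found for this member by sequence.

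*Gm8818* (chromosome 1, 153305432 to 153306478), in an intron of *Lamc1* on the other strand, was at 8.14 to 30.5 CPM in quiescent and 0 to 1.31 CPM in activated libraries. It was 15.1-fold lower in WT (95% interval 8.19 to 31.4, from 10 counts, counting error only) and 69.3-fold lower in KO (19.2 to 572, from 2 counts). Its parent *4930453N24Rik* was higher in each activated library (39.2 to 51.7 CPM) than in each quiescent one (15.2 to 31.0 CPM). *Gm12193*, a copy of *Rpl29* with 91.1% identity, went from 1.09 to 9.08 CPM to 4 counts in 1 activated library and 0 in 3, and *Gm4335*, a copy of *Gapdh*, from 2.50 to 11.6 CPM to 1, 1, 0 and 0 counts. *Gapdh* rose in both genotypes, and *Rpl29* changed by 0.97 on the log2 scale in WT, just short of the threshold, and rose by 1.00 in KO. *Gm17083*, without a parent and in an intron of *Ripk1* on the other strand, had 8, 1, 0 and 0 counts in activated libraries after 2.36 to 7.72 CPM in quiescent ones, and *Ripk1* fell from 216 to 322 CPM to 34.2 to 54.4 CPM.

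Of these 11 members 6 had no parent, 7 lay in introns, 2 of them on the host's strand, and 4 of the 5 with a parent shared no window with it.

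The median biological coefficient of variation in edgeR's fit was 0.367 for the members (0.218 to 0.992), 0.284 for the 10548 protein-coding genes between the lowest and highest mean level of the members, which were not matched to them in level, and 0.230 for the parents. By shared windows, the median was 0.438 for members that shared none and 0.301 for those that shared all.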

How the data were processed

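Total RNA of sorted cells was sequenced as bulk libraries. Per the study's methods and processing notes, the authors trimmed reads with Trim Galore 0.6.0, aligned them with STAR 2.7.2a to GRCm38 and counted them per GENCODE gene with Rsubread, and the deposited values are raw counts for 12 libraries. How reads with several equally good places, or the strand, were treated is not given in the sources used here, so counts of a copy, its parent and overlapping genes cannot be fully separated. A second table with 1 FPKM value a group was not used.

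Members and lists were chosen with earlier results of these data known. Genes with too few counts were removed by filterByExpr, which left 25771, all 200 members among them. Counts were scaled by TMM and fitted with 1 mean a group by edgeR 4.0.16 in R 4.3.3 (quasi-likelihood test, Benjamini-Hochberg over all genes). Log2 ratios of member to parent, with 0.5 added to both counts, were fitted by limma 3.58.1 over all 706 pairs with a mean pseudogene count of at least 10. The standard error in edgeR is the absolute log2 fold change over the root of F. Parents were found by blastn 2.17.0 (megablast) on GENCODE M21 transcripts, and 55141 of 55401 gene IDs matched that release. In it 2 members are annotated as protein coding. The 5 contrasts share groups: each activation contrast uses a group of the knockout contrasts. The scripts were tested on simulated data.

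Named are the members called between KO and WT, the 10 of largest mean CPM, the 5 largest rises and falls in both genotypes, the members at the edge of the ranking, the processed pseudogenes listed by the study, members whose ratio to the parent was called between KO and WT, and the parents of these. The alternatives were other scalings and filters, a robust fit, DESeq2 1.42.0, the compared groups alone, family counts, the replicate block, other rankings and leaving out each library.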

Additional observations from a re-analysis of the deposited data

Results flagged for a closer look

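In 44 comparisons of 4 quiescent libraries, over 21 named members and the summed share, 7 had 1 library farther from the other 3 than Dixon's criterion allows at 95%, where chance gives about 1 in 20. The lowest of the KO libraries in *Gm4204* and in *Eif4a-ps4* was replicate 3, at 23.5 and 21.2 CPM. KO replicate 4 was highest in *Ptges3-ps* (43.96 CPM), and KO replicate 2 in *Ndufa12-ps* (2.73 CPM) and *Gm4335* (11.6 CPM). WT replicate 3 was lowest in *Ndufa12-ps* (0.263 CPM). WT replicate 1 had the lowest summed share of counts on the members, 0.147%. Groups of 2 activated libraries could not be tested in this way, and KO activated replicate 2 is described with the results.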

How the results depend on the processing

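Between quiescent KO and WT (2 members), 1 was called with edgeR on the compared groups alone, 0 with family counts, and 1 to 2 without a library; 1 was called without KO quiescent replicate 2 and KO activated replicate 2 together, an alternative chosen after seeing the data, as was the ranking by quiescent libraries. Ratios to the parent (2) gave 1 to 2 without a library. Between activated KO and WT (0 members, 0 ratios), DESeq2 called 5 and edgeR without a filter on low counts 28, and leaving out a library gave 0 to 22 members and 0 to 25 ratios, the higher values without KO replicate 1. For the difference between states (0 and 0), 17 members were called with no filter on low counts, 1 with DESeq2, and 0 to 10 members and 0 to 7 ratios without a library. For activated against quiescent, family counts called 53 members in WT and 59 in KO, and leaving out a library gave 73 to 112 and 90 to 149 members and 27 to 80 and 57 to 121 ratios. The summed share in activated WT, 0.295%, was 0.410% of totals without *CT010467.1* and 0.330% of TMM effective sizes. The cause of these shifts was not tested, apart from the loss of calls with fewer libraries.

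With family counts, which replace a member's row by its parent and all its copies, the log2 change on activation took the other sign for *Hdac1-ps* in WT (-0.83), *Gm13456* (-0.44) and *Gm15459* (-0.85) in KO, *Eif4a-ps4* (-0.55 in WT, -0.51 in KO), *Gm12193* (0.88, 0.95), *Gm4335* (1.28, 1.19) and *Gm8818* (0.44, 0.18), and between quiescent KO and WT for *Hdac1-ps* (-0.016). Without KO activated replicate 2, *Gm10224* changed by -0.22 on activation in KO, and *Gm13456* by -0.29 between activated KO and WT, also -0.29 without both KO replicates 2; without any 1 library these values ranged up to 4.41 and 3.84. Over the named members 579 alternative values kept their direction and side of the threshold, 32 lost and 7 gained a call, and 15 took the other sign.

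The labels do not say whether equal replicate numbers pair the libraries. Same-numbered deviations in quiescent cells correlated at 0.05, 0.12, -0.05 and 0.30. Total counts of same-numbered quiescent WT and KO libraries were 17532019 and 17238391, 12775593 and 13075208, 23058947 and 22897189, and 22785815 and 23717013. In activated cells they were 5427280 and 3589006, and 3172164 and 5019788. Whether equal numbers share a batch was not tested. With the number as a block, 2 members were called in quiescent and 0 in activated KO against WT, 108 and 134 on activation, and 0 of the 2 ratios in quiescent KO against WT. Depth limits the low members: the median member count was 23 to 75.5 in activated libraries.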
